A study of Homo sapiens with 6 samples.

Results

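TXNIP, the α-arrestins ARRDC1, ARRDC2, ARRDC3 and ARRDC4, and the glucose-sensing transcription factors MLX and MLXIP were followed as 7 genes chosen by name, each matched to 1 of the 60683 rows of the count table through its Ensembl identifier. RNA was sequenced from 143B cells, a human osteosarcoma line derived from HOS cells, in 3 libraries from cells given TPBC-PEG for 24 h and 3 from cells given PBS for 24 h. All cells were kept in DMEM with serum, and every library comes from this 1 cell line. The TPBC-PEG dose is not settled, being 3 µM in the titles and 300 µM in the treatment protocol, and no label states whether these cells were lit. The series title names photodynamic therapy, in which a compound forms reactive oxygen species under light, and HIPPO signalling.

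TXNIP is the thioredoxin-interacting protein: it binds thioredoxin, the small protein that reduces oxidised cysteines, and it slows glucose entry by drawing glucose transporters off the cell surface. It belongs to the α-arrestins, adaptor proteins that bring NEDD4-type ubiquitin ligases to membrane proteins so that these are taken up and degraded. MLXIP, also called MondoA, pairs with MLX, moves to the nucleus when glucose 6-phosphate rises, and activates TXNIP and ARRDC4 through a carbohydrate response element (ChoRE), a pair of E-box-like half-sites a fixed distance apart. TXNIP mRNA is thus widely used as a readout of glucose sensing, and it is also known to rise under stress of the endoplasmic reticulum.

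The promoter windows of TXNIP, ARRDC4 and ARRDC3 are shown because MLXIP is known to activate TXNIP and ARRDC4 and because ARRDC3 and TXNIP were the members that rose. RefSeq (GRCh38.p14) gave a window of 300 bases, 250 before to 50 after a start, for all 7 genes, 10 windows in all since TXNIP, ARRDC2 and ARRDC3 each have a second start. On both strands, the motifs searched were the E-box CACGTG, the ChoRE as a direct repeat (CACGNG, 5 bases, CACGNG) or an inverted repeat (CACGNG, 5 bases, CNCGTG), the CCAAT box CCAAT, the FOXO motif TGTTTAC and the amino acid response motif TGATGNAA. An E-box can be part of a ChoRE match. Capitals mark the matches found.
TXNIP, first start, chr1:145996530-145996829, minus strand: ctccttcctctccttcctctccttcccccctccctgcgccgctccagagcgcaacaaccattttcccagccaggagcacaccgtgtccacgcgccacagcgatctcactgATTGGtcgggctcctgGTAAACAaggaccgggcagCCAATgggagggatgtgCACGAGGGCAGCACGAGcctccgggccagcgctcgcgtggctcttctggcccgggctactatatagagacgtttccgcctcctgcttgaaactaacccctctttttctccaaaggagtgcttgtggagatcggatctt
ARRDC4, chr15:97960453-97960752, plus strand: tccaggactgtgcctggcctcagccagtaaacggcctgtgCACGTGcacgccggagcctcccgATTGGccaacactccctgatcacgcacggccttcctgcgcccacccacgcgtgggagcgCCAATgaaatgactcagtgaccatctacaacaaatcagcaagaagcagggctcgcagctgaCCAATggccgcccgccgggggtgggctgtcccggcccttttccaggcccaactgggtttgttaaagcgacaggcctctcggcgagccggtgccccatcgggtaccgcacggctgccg
ARRDC3, first start, chr5:91383268-91383567, minus strand: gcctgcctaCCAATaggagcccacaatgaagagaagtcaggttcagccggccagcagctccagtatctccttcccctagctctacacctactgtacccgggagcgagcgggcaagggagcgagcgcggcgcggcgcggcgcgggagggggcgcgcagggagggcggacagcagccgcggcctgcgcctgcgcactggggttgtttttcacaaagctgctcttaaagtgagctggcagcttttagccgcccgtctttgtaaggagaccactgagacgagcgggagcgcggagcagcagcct
ARRDC3, second start, chr5:91380048-91380347, minus strand: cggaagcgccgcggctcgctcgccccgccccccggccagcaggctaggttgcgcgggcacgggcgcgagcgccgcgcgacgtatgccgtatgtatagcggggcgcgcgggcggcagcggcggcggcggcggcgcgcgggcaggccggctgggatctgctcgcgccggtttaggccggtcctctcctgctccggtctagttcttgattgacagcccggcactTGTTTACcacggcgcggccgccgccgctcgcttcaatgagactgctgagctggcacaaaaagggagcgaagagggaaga

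The TXNIP window holds the direct-repeat ChoRE 88 to 72 bases before the start, next to a CCAAT box at 105 bases, a FOXO motif at 124 bases on the opposite strand and a CCAAT box at 140 bases on the opposite strand. The direct-repeat ChoRE was found in 20 of 35116 windows, 0.057% of all, and the inverted repeat in 8. ARRDC4 has an E-box 210 bases before its start and 3 CCAAT boxes, and it has no match to either ChoRE pattern in this window. ARRDC3 has a CCAAT box 241 bases before the first start and a FOXO motif 29 bases before the second. MLX has an E-box at 50 bases, a motif that 7.26% of all windows hold. CCAAT boxes were in 7 of the 10 windows of these genes and in 34.6% of all windows, FOXO motifs in 2 of the 10 and in 3.42%, and the amino acid response motif in 0 of the 10 and in 3.62%.

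**Figure D1:**
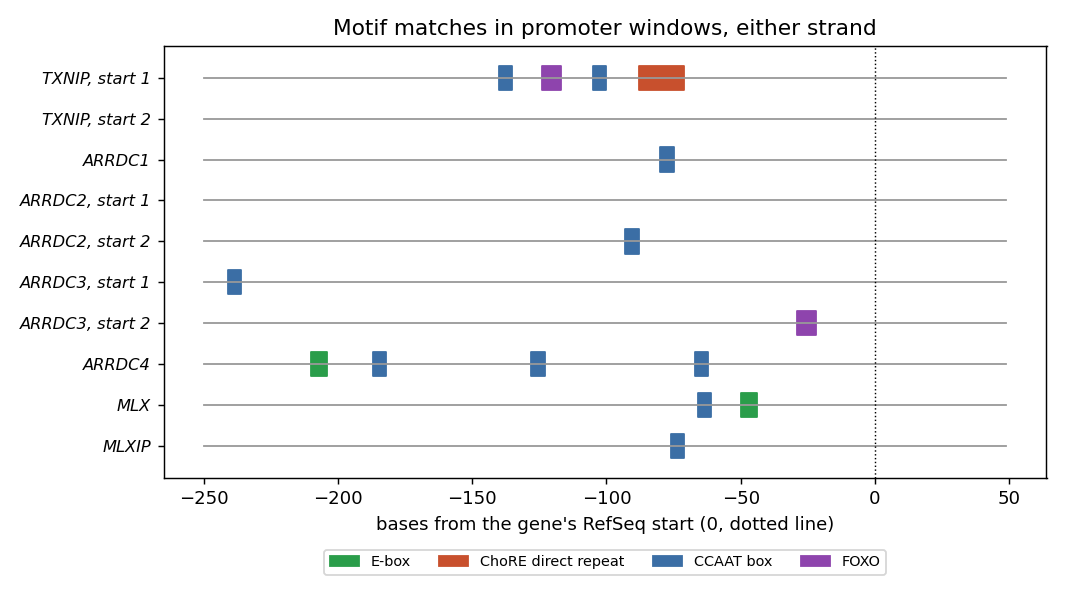
Motif matches in the 10 RefSeq promoter windows of the 7 genes, with distance from the start in bases on the x axis and a row for each window. TXNIP is the gene with a ChoRE match, 88 to 72 bases before its first start; E-boxes stand in the ARRDC4 and MLX windows.

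After TPBC-PEG, ARRDC3 and TXNIP mRNA stood higher and MLX and MLXIP mRNA lower than with PBS, while ARRDC1, ARRDC2 and ARRDC4 were not called. ARRDC3 stood 91.4% and TXNIP 49.6% above PBS, and MLXIP and MLX changed by -20.9% and -17.3%. All 7 genes passed the filter on low counts. Genes were called at an adjusted p under 0.05 in edgeR's quasi-likelihood test with Benjamini-Hochberg adjustment over all 15846 genes tested. Of the 7 genes, 2 were higher and 2 lower, against 16.2% higher and 16.9% lower among all genes tested (33.2% in either direction). The groups did not overlap for 4 of the 7 genes (2 higher, 2 lower) and for 43.4% of all genes tested (22.1% higher, 21.4% lower). The median log2 fold change of the 7 was 0.031, and that of all genes tested was 0.011.

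**Figure D2:**
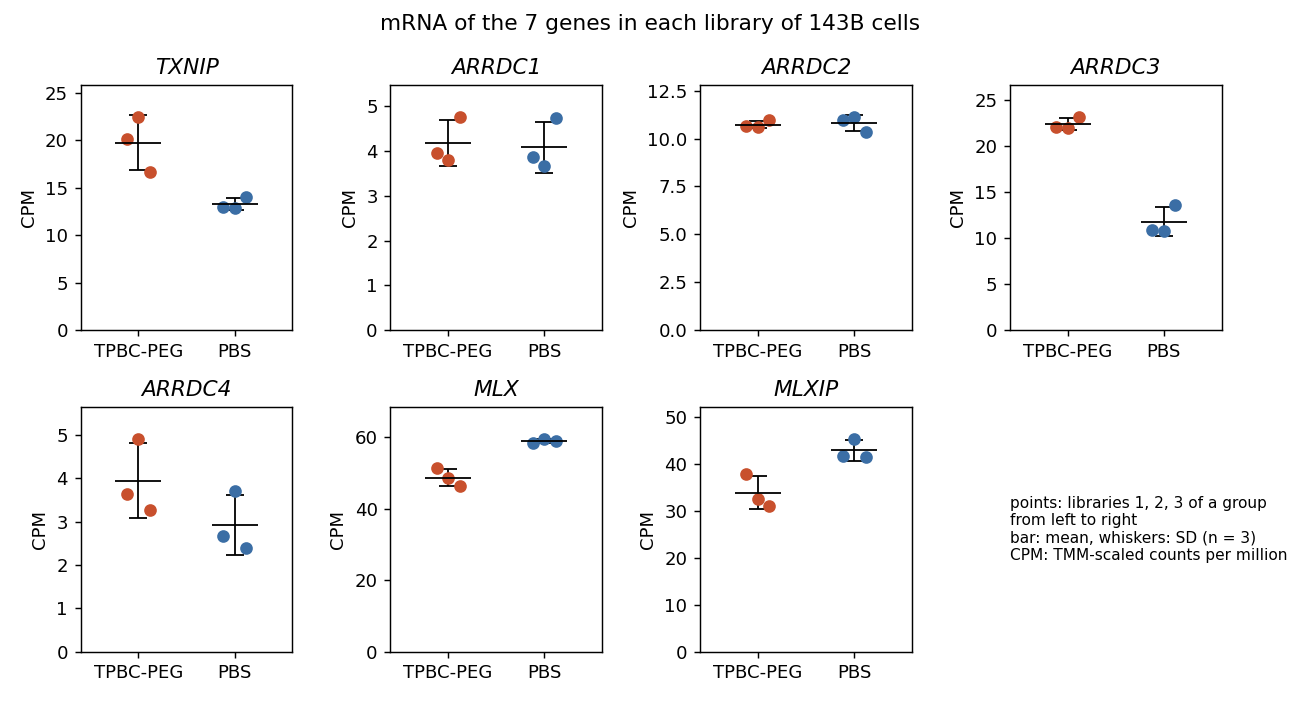
TMM-scaled CPM (counts scaled to library size) of the 7 genes in each library, with TPBC-PEG left of PBS; points are libraries, bars means and whiskers SD (n = 3). The ARRDC3 and TXNIP points with TPBC-PEG lie above all PBS points, the MLX and MLXIP points below, and those of ARRDC1, ARRDC2 and ARRDC4 overlap.

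The libraries held 15726323 to 20486584 counts, and any pair of libraries of 1 group correlated at 0.992 to 0.993, against 0.985 to 0.988 for pairs of different groups (Pearson's r over genes, on log2 CPM; genes are not independent replicates). No label says that the replicates came from separate cultures, and p-values therefore cover the spread among these 6 libraries alone, possibly a technical one. In bulk RNA, fewer cells with a transcript and less of it per cell cannot be told apart. Of 6 mesenchymal and osteoblast lineage markers 4 were at 1 CPM or more, and COL1A2 and THY1 were near 0. Their sum ran from 2695 to 2814 CPM with TPBC-PEG and from 3013 to 3061 CPM with PBS: VIM, COL1A1 and SPARC were lower, at -0.14, -0.48 and -0.18, and RUNX2 was higher, at 0.55 (log2 fold change, all called). Of 4 epithelial markers, EPCAM and KRT18 were at 1 CPM or more and CDH1 and KRT19 near 0. The epithelial sum ran from 560.1 to 619.6 CPM with TPBC-PEG and from 762.3 to 798.1 CPM with PBS, of which KRT18 made up most, at 568.1 CPM with TPBC-PEG and 762.4 CPM with PBS, while EPCAM was not called. The part of these markers in the results was not tested. The 3 immune and 2 endothelial markers averaged under 1 CPM in both groups.

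TXNIP (ENSG00000265972, chromosome 1, 145992435 to 145996600, minus strand, GRCh38) had 20.1, 22.5 and 16.7 CPM in the TPBC-PEG libraries, against 13.0, 12.9 and 14.0 CPM in the PBS libraries. The lowest TPBC-PEG library, replicate 3, stood above the highest PBS library, also replicate 3, and the TPBC-PEG values were spread wider. The means were 19.8 ± 2.91 CPM with TPBC-PEG and 13.3 ± 0.608 CPM with PBS (SD, n = 3), from 1827 reads in all. The log2 fold change was 0.58 ± 0.098 (SE), with a 95% interval of 0.38 to 0.78 and an adjusted p of 4.48e-06 by edgeR. The change exceeded the spread between replicates, and 971 of the genes tested had a larger rise. No exon of TXNIP overlaps another annotated gene.

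ARRDC3, which recruits NEDD4-type ligases to integrin β4, changed the most of the 7. ARRDC3 (ENSG00000113369, chromosome 5, 91368724 to 91383359, minus strand) had 22.15, 22.03 and 23.2 CPM with TPBC-PEG, against 10.9, 10.8 and 13.6 CPM with PBS. The TPBC-PEG libraries lay close together, replicate 3 was the highest library of both groups, and the groups stood far apart. Means were 22.5 ± 0.644 CPM with TPBC-PEG and 11.8 ± 1.599 CPM with PBS (SD, n = 3). The log2 fold change was 0.94 ± 0.094 (SE; 95% interval 0.75 to 1.13; edgeR adjusted p = 2.08e-11), and 320 genes tested had a larger rise. ARRDC3 alone of the 7 was also called in the test against a 1.5-fold change (edgeR glmTreat, adjusted p = 0.00623). Its exons share 2.94% of their length with the antisense ARRDC3-AS1, which was not called, at 1.81 ± 0.483 CPM with TPBC-PEG and 1.49 ± 0.127 CPM with PBS (SD, n = 3).

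ARRDC4, an α-arrestin that MLXIP also activates, was not called. ARRDC4 (ENSG00000140450, chromosome 15, 97960698 to 97973838, plus strand) had 3.65, 4.92 and 3.26 CPM with TPBC-PEG, against 2.66, 3.71 and 2.40 CPM with PBS. Replicate 2 was the highest library of both groups, and PBS replicate 2 lay above TPBC-PEG replicates 1 and 3, so the groups overlapped. The log2 fold change was 0.44 ± 0.20 (SE) with an interval of 0.030 to 0.85, and the adjusted p was 0.0932 by edgeR. Only 381 reads over the 6 libraries stood behind this value. Without PBS replicate 2 the gene was called, at 0.65 (edgeR adjusted p = 0.0267), and without TPBC-PEG replicate 2 the log2 fold change was 0.24 (edgeR adjusted p = 0.496). The call for ARRDC4 rested on which library of that number was kept, and a difference of the size seen for TXNIP lies within its interval.

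ARRDC1, which binds TSG101 to bud vesicles from the plasma membrane, and ARRDC2, another ligase adaptor, gave no call. ARRDC1 (ENSG00000197070, chromosome 9, 137605654 to 137615360, plus strand) had 3.96, 3.81 and 4.77 CPM with TPBC-PEG, against 3.86, 3.66 and 4.73 CPM with PBS. Replicate 3 was the highest library of both groups, and the groups overlapped throughout. Its log2 fold change was 0.031 ± 0.18 (SE), with an interval of -0.33 to 0.39 and an edgeR adjusted p of 0.919. ARRDC2 (ENSG00000105643, chromosome 19, 18001132 to 18014102, plus strand) had 10.6, 10.6 and 11.0 CPM with TPBC-PEG, against 11.0, 11.1 and 10.3 CPM with PBS. Its values lay within a narrow band in both groups. The ARRDC2 log2 fold change was -0.015 ± 0.11 (SE; interval -0.23 to 0.20; edgeR adjusted p = 0.935). The sign of both small differences turned under other settings. ARRDC1 shares 5.55% and ARRDC2 9.53% of exon length with other annotated genes. ARRDC1-AS1, which shares 0.759% of the ARRDC1 exon length on the opposite strand, had 19.9 ± 0.976 CPM with TPBC-PEG and 18.2 ± 0.290 CPM with PBS (SD, n = 3) and was not called.

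MLX and MLXIP, the partners that drive TXNIP in high glucose, were both lower with TPBC-PEG. MLX (ENSG00000108788, chromosome 17, 42567068 to 42573239, plus strand) had 51.2, 48.5 and 46.3 CPM with TPBC-PEG, against 58.4, 59.6 and 58.8 CPM with PBS. Every TPBC-PEG library lay below every PBS library, and the PBS values were close together. The log2 fold change of MLX was -0.27 ± 0.056 (SE; interval -0.39 to -0.16; edgeR adjusted p = 0.000124). Over 18.1% of its exon length MLX overlaps PSMC3IP on the opposite strand, a gene that was not called at 43.9 ± 1.87 CPM with TPBC-PEG and 46.5 ± 3.50 CPM with PBS (SD, n = 3); how far shared reads enter the MLX count was not tested.

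MLXIP (ENSG00000175727, chromosome 12, 122078722 to 122147347, plus strand) had 37.8, 32.6 and 31.2 CPM with TPBC-PEG, against 41.7, 45.4 and 41.6 CPM with PBS. TPBC-PEG replicate 1 was the highest of its group and still below all PBS libraries. The means were 33.9 ± 3.50 CPM with TPBC-PEG and 42.9 ± 2.18 CPM with PBS (SD, n = 3). The log2 fold change was -0.34 ± 0.068 (SE; interval -0.48 to -0.20; edgeR adjusted p = 8.77e-05). MLXIP exons overlap no other annotated gene. MLXIPL, which encodes ChREBP, the liver counterpart of MLXIP, had 0 to 6 reads a library and was not tested.

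**Figure D3:**
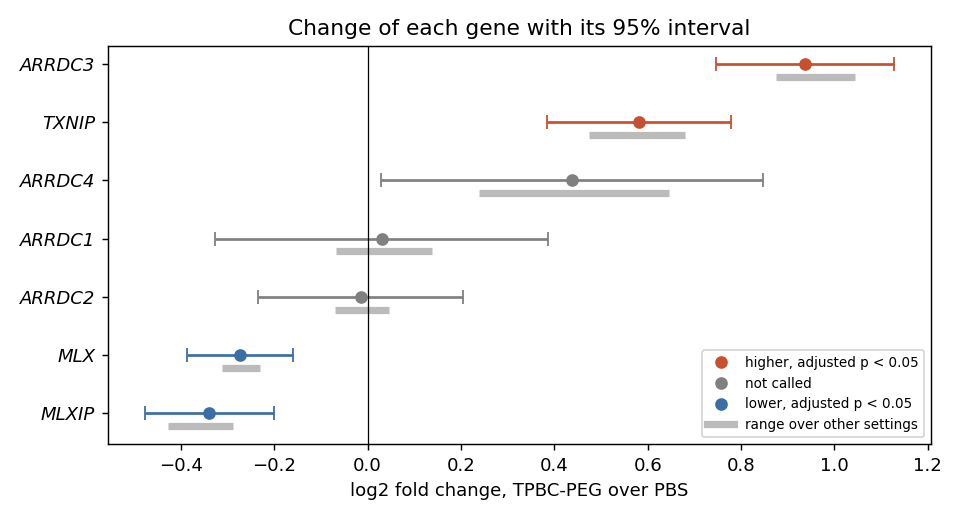
Log2 fold change (TPBC-PEG over PBS, x axis) of each gene with its 95% interval; grey bars give the range over 18 other settings. ARRDC3 and TXNIP lie above 0 and MLX and MLXIP below 0 over their whole intervals and ranges, while the intervals of ARRDC1 and ARRDC2 span 0. The ARRDC4 interval (0.030 to 0.85) and range (0.24 to 0.65) also lie above 0, though ARRDC4 was not called.

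Per kilobase of exon, MLX mRNA stood highest of the 7 in both groups. In PBS libraries the order of levels per exon length was MLX at 13.8 ± 0.143 CPM per kb, TXNIP at 3.67 ± 0.168, MLXIP at 3.09 ± 0.157, ARRDC3 at 2.39 ± 0.324, ARRDC2 at 2.33 ± 0.0919, ARRDC1 at 1.07 ± 0.149 and ARRDC4 at 0.718 ± 0.171 (SD, n = 3). The ranges of ARRDC3 and ARRDC2 overlapped in PBS libraries. With TPBC-PEG the level of ARRDC3 was 4.55 ± 0.131 CPM per kb, above MLXIP at 2.44 ± 0.251 and ARRDC2 at 2.32 ± 0.0440, which overlapped each other. TXNIP stood at 5.45 ± 0.802 CPM per kb with TPBC-PEG, its lowest library at 4.602, inside the ARRDC3 range of 4.47 to 4.70. MLX remained first at 11.4 ± 0.576 CPM per kb. ARRDC1 at 1.09 ± 0.135 and ARRDC4 at 0.968 ± 0.213 CPM per kb overlapped with TPBC-PEG. The exon length joins all annotated isoforms, which lowers the value of genes with long, little-used exons, and MLXIP has the longest at 13905 bases.

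**Figure D4:**
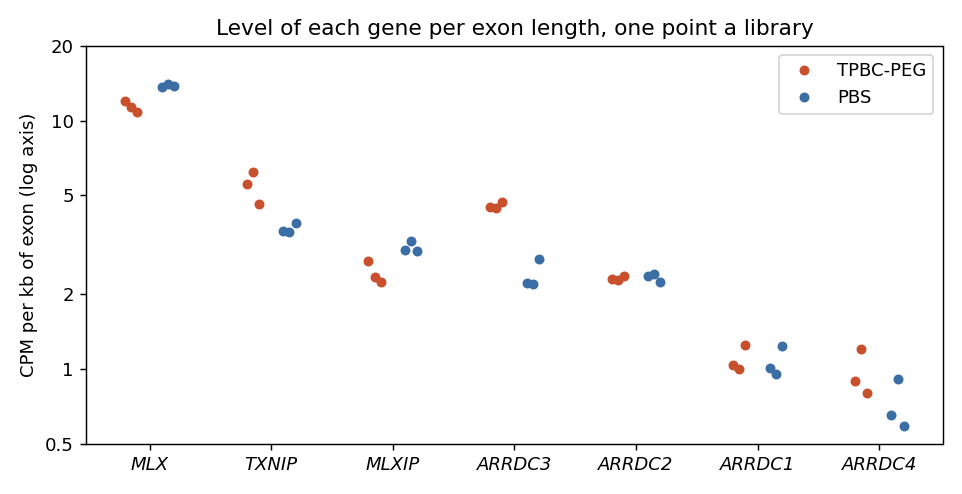
Level of each gene in CPM per kilobase of exon on a log axis, 1 point a library, ordered by the PBS mean. MLX is highest in both groups, and ARRDC3 lies at 4.47 to 4.70 with TPBC-PEG and beside ARRDC2 in PBS libraries.

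Thioredoxin, the protein that TXNIP binds, showed no call at the mRNA level. TXN had 222.7 ± 4.03 CPM with TPBC-PEG and 226.6 ± 19.3 CPM with PBS (SD, n = 3; log2 fold change -0.025 ± 0.044, SE). Of 5 thioredoxin and thioredoxin reductase genes, 1 rose and 2 fell, beside 16.2% higher and 16.9% lower among all genes tested. TXNRD1, the cytosolic reductase and a standard NRF2 target, rose by 0.42 ± 0.036, while the mitochondrial TXNRD2 and TXN2 were at -0.34 ± 0.052 and -0.25 ± 0.054 (log2, SE).

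Of 9 measured genes of the MYC, MAX and MLX network other than MLX and MLXIP, 6 rose and 0 fell, with a median log2 fold change of 0.32 against 0.011 over all genes tested; MAX, MNT and MXD3 were not called, at 0.040, 0.17 and -0.30, and without TPBC-PEG replicate 3 there was 1 call lower. MXD1, a MAX partner that opposes MYC and can also pair with MLX, had 36.1 ± 4.44 CPM with TPBC-PEG and 12.5 ± 1.29 CPM with PBS (SD, n = 3), a log2 fold change of 1.54 ± 0.090 (SE; edgeR adjusted p = 1.10e-17). MYCL rose by 0.90 ± 0.23, MXD4 by 0.75 ± 0.18 and MXI1 by 0.43 ± 0.079 (log2, SE). MXD4 and MXI1 encode MAX partners of the same repressor family as MXD1. MYC itself and MGA were also called higher, at 0.32 ± 0.094 and 0.19 ± 0.041 (log2, SE). The 6 rises among these 9 genes stand beside 16.2% higher among all genes tested. This list, like the others, was chosen with earlier results of these data known.

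Other genes that MLXIP or ChREBP are known to activate moved in both directions. Of 8 measured, 4 rose and 3 fell, with a median log2 fold change of 0.083. Among all genes tested 16.2% were higher and 16.9% lower, with a median of 0.011. RGS16, a regulator of G-protein signalling, was at 0.59 ± 0.22, TKFC, a fructose-pathway kinase, at 0.37 ± 0.094, ELOVL6, a fatty acid elongase, at 0.28 ± 0.050 and SCD, the stearoyl-CoA desaturase, at 0.21 ± 0.036 (log2, SE). KLF10, a zinc-finger repressor, and the lipid synthesis genes ACLY and FASN fell, at -0.17 ± 0.051, -0.13 ± 0.038 and -0.11 ± 0.041, and without TPBC-PEG replicate 1 or 2 or PBS replicate 2 the list held 2 falls. The RGS16 call was lost without TPBC-PEG replicate 1 or 2 or PBS replicate 1 or 3 (edgeR adjusted p = 0.323, 0.0502, 0.0642 and 0.153), and without TPBC-PEG replicate 1 its log2 fold change was 0.35.

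Among 11 glucose transporters and hexokinases 3 rose and 2 fell, beside 16.2% higher and 16.9% lower among all genes tested. HKDC1, a hexokinase-like gene, had 22.7 ± 0.924 CPM with TPBC-PEG and 7.63 ± 1.31 CPM with PBS (SD, n = 3), a log2 fold change of 1.58 ± 0.10 (SE; edgeR adjusted p = 2.73e-17). SLC2A10 rose by 0.77 ± 0.13 and SLC2A3, the high-affinity transporter GLUT3, by 0.62 ± 0.074 (log2, SE). SLC2A1, which encodes GLUT1, the transporter that TXNIP draws from the membrane, stood at 107.2 ± 1.01 CPM with TPBC-PEG and 118.6 ± 3.96 CPM with PBS (SD, n = 3), at -0.15 ± 0.044. SLC2A13 was called at -0.21 ± 0.082. The SLC2A13 call was lost without TPBC-PEG replicate 1, 2 or 3 (edgeR adjusted p = 0.0734, 0.145 and 0.0698) and without PBS replicate 1 or 3 (0.224 and 0.0583); the list then held 1 or 2 lower genes.

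**Figure D5:**
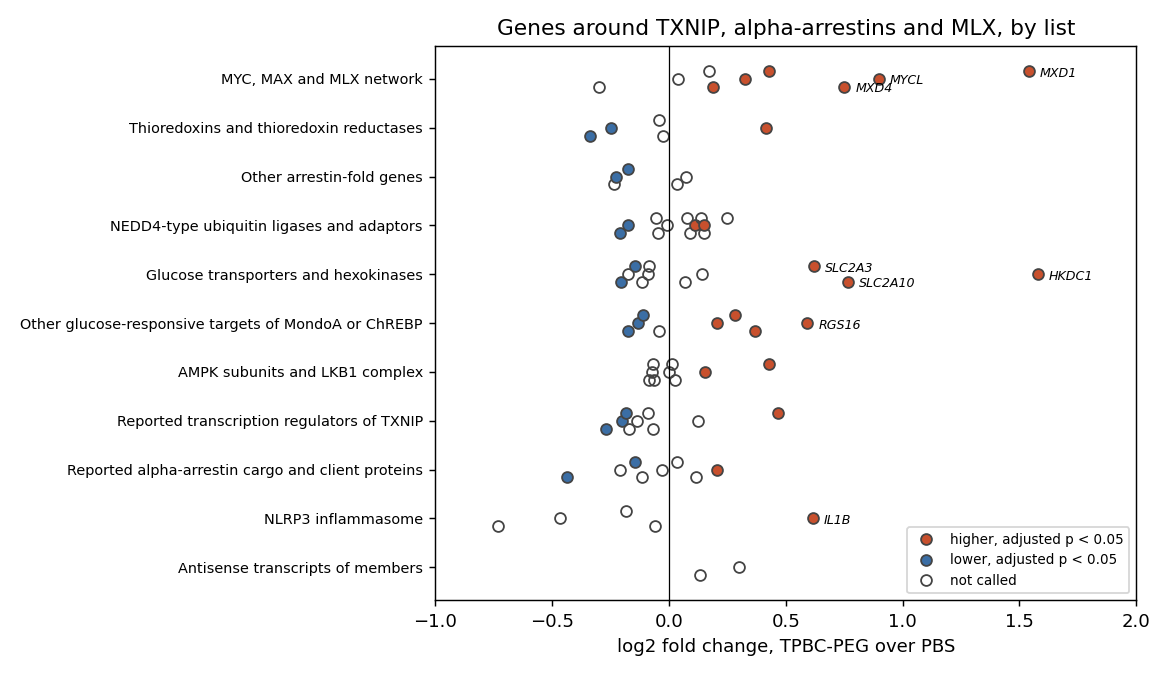
Log2 fold change (TPBC-PEG over PBS) of each tested gene in the 11 lists, 1 point a gene, filled where the adjusted p was under 0.05. HKDC1 and MXD1 lie farthest right, at 1.58 and 1.54.

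Of 12 NEDD4-type ligases, which α-arrestins recruit, and their adaptors, 2 rose and 2 fell, a share near the 33.2% called among all genes tested. NEDD4L and SMURF2 were at -0.21 ± 0.041 and -0.18 ± 0.040, and ITCH, the ligase that marks TXNIP for degradation, and the adaptor NDFIP1 at 0.11 ± 0.041 and 0.15 ± 0.051 (log2, SE). The ITCH call was lost without TPBC-PEG replicate 1 or 2 (edgeR adjusted p = 0.193 and 0.115) or PBS replicate 1 or 2 (0.116 and 0.0700). The NDFIP1 call was lost without TPBC-PEG replicate 1 or 2 (edgeR adjusted p = 0.0561 and 0.163) or PBS replicate 2 or 3 (0.0663 and 0.0798). Without these libraries the list held 0 to 2 rises.

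Of 5 measured genes with an arrestin fold outside the α-arrestins, 2 were called and both were lower. Calls made up 33.2% of all genes tested, and 16.9% were lower. ARRB2, β-arrestin 2, was at -0.23 ± 0.052 and VPS26B, a retromer subunit, at -0.17 ± 0.068 (log2, SE). The VPS26B call was lost without TPBC-PEG replicate 1, 2 or 3 (edgeR adjusted p = 0.0589, 0.0777 and 0.126) or PBS replicate 2 or 3 (0.162 and 0.0828), which left 1 gene lower. ARRDC5, the remaining α-arrestin, had 0 reads in every library.

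Of 8 genes for proteins that α-arrestins are reported to bind or remove, 1 rose and 2 fell. Shares among all genes tested were 16.2% higher and 16.9% lower. SLC11A2, an iron transporter handled by ARRDC1 and ARRDC4, rose by 0.21 ± 0.057, and SLC2A1 was among those that fell, as given above. YAP1, the Hippo coactivator that ARRDC1 and ARRDC3 are reported to bind in renal carcinoma cells, was not called, at 0.032 ± 0.037.

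Among 9 reported transcription regulators of TXNIP 1 rose and 3 fell, beside 16.2% higher and 16.9% lower among all genes tested. FOXO3 rose by 0.47 ± 0.061, to 53.1 ± 2.91 CPM with TPBC-PEG against 38.5 ± 0.778 CPM with PBS (SD, n = 3). EZH2, a Polycomb methyltransferase reported to repress TXNIP, was at -0.27 ± 0.052, and NFYA and NFYB, subunits of the factor that binds CCAAT boxes, at -0.20 ± 0.059 and -0.19 ± 0.061 (log2, SE). The NFYB call was lost without TPBC-PEG replicate 3 or PBS replicate 1 (edgeR adjusted p = 0.0589 and 0.0954).

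AMPK is the energy-sensing kinase that marks TXNIP protein for degradation. Of 9 measured AMPK and LKB1 complex genes 2 rose and 0 fell at an adjusted p under 0.05 (edgeR). PRKAB2 was at 0.43 ± 0.054 and PRKAA2 at 0.15 ± 0.056 (log2, SE). Shares among all genes tested were 16.2% higher and 16.9% lower. The PRKAA2 call was lost without TPBC-PEG replicate 1 or 3 (edgeR adjusted p = 0.176 and 0.0921) or PBS replicate 2 or 3 (0.119 and 0.156), which left 1 rise. Of 5 measured genes of the NLRP3 inflammasome, which TXNIP protein can activate, IL1B, the interleukin-1β gene, rose by 0.61 ± 0.074 (SE), and without PBS replicate 3 there was also 1 gene lower. The other 4, NLRP3, NEK7, PYCARD and GSDMD, were not called, though in each of them every TPBC-PEG library lay below every PBS library, as in 21.4% of all genes tested. NLRP3 itself had 2.66 ± 0.171 CPM with TPBC-PEG and 3.70 ± 0.349 CPM with PBS (SD, n = 3).

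Genes that share the ChoRE letters of TXNIP, a list drawn after the values were seen, were read out for description. Of 20 genes with the direct repeat in a window, 15 were tested, 7 of these, TXNIP included, were higher (46.7%) and 1 was lower (6.67%), beside 16.2% and 16.9% of all genes tested. GFPT1, the entry enzyme of hexosamine synthesis, rose the most of these, at 191.6 ± 11.7 CPM with TPBC-PEG and 108.3 ± 2.74 CPM with PBS (SD, n = 3; log2 fold change 0.82 ± 0.044, SE). RAN, a nuclear transport GTPase, was the gene that fell, at -0.20 ± 0.037. The inverted repeat gave 5 tested genes, 1 higher and 1 lower. Of 395 tested genes with a FOXO motif, 25.1% were higher and 12.7% lower, and of 320 with the amino acid response motif, which none of the 7 genes holds in a window, 27.2% and 13.8%. CCAAT boxes gave 19.1% higher and 18.8% lower among 4862 tested genes. Of 1414 with an E-box, 16.1% were higher and 21.5% lower. Motif shares cover only tested genes with a unique symbol and a RefSeq window. The shares of all genes tested also include genes without these.

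Many genes followed a called member over the 6 libraries, since genes that differ between the groups in the same direction tend to do so. Likeness was the distance between log2 CPM deviations from the PBS mean, over 6 libraries and 11320 genes at 5 CPM or more. Nearest to TXNIP were TMEM50B, EDEM2, TMEM45A, DYRK3 and FAM200C, at distances of 0.115 to 0.158. Nearest to ARRDC3 were TRIM16L, HBP1, JUND, HMOX1 and OSER1-DT, at 0.169 to 0.243. MLX lay nearest to PLPPR2, UBE2T, CIP2A, GFM1 and SLC25A24, at 0.0397 to 0.0723, and MLXIP to CHDH, MYLK, SLC25A12, COCH and ASF1B, at 0.0994 to 0.140.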

How the data were processed

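Raw read counts of 60683 Ensembl genes in 6 libraries were deposited by the authors as 1 table. The submitters' processing notes name HISAT2 and the GRCh38 build; the HISAT2 version, counting program, annotation and strand setting were not found in the sources. Column names were matched to sample descriptions, and titles gave the groups and replicate numbers. GENCODE release 29 (GRCh38) gave positions, exon lengths and overlaps, and RefSeq the promoter windows. A symbol was found for 42013 rows.

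The test was edgeR's quasi-likelihood test (edgeR 4.0.16, with limma 3.58.1, under R 4.3.3): filterByExpr by group (minimum count 10, minimum total 15), TMM scaling, glmQLFit with robust estimation and glmQLFTest with the group as the only term, over all 15846 genes kept. The SE came from the F statistic. A prior count of 2 entered log2 CPM. Reads carry no molecular identifiers, so counting precision may be overstated, which was not tested. Alternatives were DESeq2 1.42.0, limma-voom, other scalings and filters, a test against a 1.5-fold change, GC and expression level offsets (lowess span 0.3), the replicate number as a block and leaving out each library. The script was tested on simulated data.

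The 7 genes and 11 lists were chosen with earlier results of these data known. From each list up to 4 called genes at 1 CPM or more with the largest change were named, or the 2 most abundant where none was called; genes most like a called member were the 5 nearest at 5 CPM or more. TXN, YAP1, NLRP3, NEK7, PYCARD, GSDMD, MYC, MGA, MAX, MNT, MXD3, KLF10, ACLY, FASN, MLXIPL, ARRDC5, GFPT1 and RAN were named outside this rule, after their values were seen. Replicates were not copies: within groups, counts varied by 2.26 to 4.26 times what sampling alone gives (chi-square over its degrees of freedom). A called gene of the α-arrestin client list is not reported here.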

Additional observations from a re-analysis of the deposited data

How the results depend on the processing

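Each result was recomputed under 18 other settings. The 2 higher and 2 lower calls among the 7 genes stayed the same in number in all settings but 2: against a 1.5-fold change 1 gene was higher and 0 lower, while over all genes 131 were higher and 14 lower; and leaving out PBS replicate 2 gave 3 higher. Over the settings that leave out a library, 1987 to 2347 genes were higher and 2141 to 2515 lower, against 2574 and 2682 with all libraries; with library size alone they were 3213 and 1971. The log2 fold change ran from 0.88 to 1.04 for ARRDC3, 0.48 to 0.68 for TXNIP, 0.24 to 0.65 for ARRDC4, -0.31 to -0.23 for MLX and -0.43 to -0.29 for MLXIP. The ARRDC1 difference turned to -0.055 with the expression level trend removed and to between -0.067 and -0.016 without TPBC-PEG replicate 3, PBS replicate 1 (-0.016) or PBS replicate 2 (-0.043), the leave-one-out values running from -0.067 to 0.14. The ARRDC2 difference turned to 0.028 with library size alone, 0.045 with the GC trend removed and 0.0030 without PBS replicate 2, the leave-one-out values running from -0.049 to 0.0030. None of these passed the test (edgeR, adjusted p from 0.790 to 0.989).

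Against a 1.5-fold change the lists kept 1 rise each for the MYC network and the glucose transporters and 0 other calls. Counts in the lists moved by over 1.5 times in some settings. NEDD4-type rises were 2 with the chosen settings, 6 with library size alone, 4 with the level trend removed, 1 with no filter and 0 with DESeq2 or the GC trend removed. Falls among glucose transporters and hexokinases were 2, against 0 with library size alone and 1 with upper quartile scaling, no filter, DESeq2, limma-voom or the level trend removed. Falls were 1 in place of 2 for other arrestin-fold genes (library size alone, no filter, DESeq2, GC trend removed) and for cargo genes (library size alone, level trend removed), and 1 in place of 3 for glucose-responsive targets (the same pair). With the GC trend removed AMPK rises were 1 and falls 2, and inflammasome falls 1; with the level trend removed inflammasome falls were 3 and cargo rises 2. AMPK rises were also 1 with DESeq2. Calls of VPS26B, NDFIP1, ITCH, SLC2A13, RGS16, PRKAA2, NFYB and SLC2A1 were each lost under at least 1 of these settings, with adjusted p from 0.0507 to 0.252.

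With the replicate block the log2 fold changes were 0.57 for TXNIP, 0.94 for ARRDC3 and 0.43 for ARRDC4. Those of MLX and MLXIP were -0.27 and -0.34, and 2531 genes were higher and 2644 lower. Over all genes tested, same-numbered libraries deviated from their group means with correlations of 0.0034, 0.065 and -0.015. ARRDC1, ARRDC3 and ARRDC4 were each highest in the same replicate number of both groups. For ARRDC3 this was replicate 3, at 23.2 CPM with TPBC-PEG and 13.6 CPM with PBS. No label says what the number marks, and whether same-numbered samples share a batch was not tested. ARRDC1 and ARRDC4, under 5 CPM, are the genes that depth limits most.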
